A study of Homo sapiens with 6 samples.

Results

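The mature miRNAs miR-193 and miR-365 are encoded together at 2 places in the human genome, with miR-193b and miR-365a on chromosome 16 and miR-193a and miR-365b on chromosome 17. The 6 arms described here, hsa-miR-193a-5p, hsa-miR-193a-3p, hsa-miR-193b-5p, hsa-miR-193b-3p, hsa-miR-365a-5p and hsa-miR-365a-3p, were taken by name from the 1000 mature miRNAs of the count file, and all 6 passed the limit on low counts. The miR-365b arms, miR-365b-5p and miR-365b-3p, are no members and are given beside them as relatives from the same chromosome 17 cluster. The study compared HEK 293T cells, an immortalized line from human embryonic kidney, with a strain of the same line in which both terminal uridylyltransferases TUT4 (TENT3A) and TUT7 (TENT3B) are knocked out (ΔTUT4/7). Neither group was treated, and each group has 3 libraries that the labels call biological replicates. The knockout strain had been made for an earlier study, the sources read do not say whether it is 1 clone, and any other difference between the strains is part of each fold change.

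A miRNA hairpin is cut by Drosha and Dicer into a duplex of a 5p and a 3p arm, of which usually 1 is kept in an Argonaute protein as the guide while the other is degraded. TUT4 and TUT7 add uridines to the 3′ ends of precursors and of mature miRNAs, and the added tail falls on the 3p side of a precursor. Group II precursors are those that need 1 added nucleotide before Dicer cuts them, and the study's list of group II hairpins holds miR-365a but not miR-365b, miR-193a or miR-193b. miR-193b and miR-365 are known for their high expression in brown fat, miR-193a-3p and miR-193b-3p for tumour suppression through targets such as MCL1 and KIT, and miR-365-3p for repression of interleukin 6.

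The mature sequences show which arms can be told apart by their reads. They are printed 5′ to 3′ as RefSeq gives them on GRCh38.p14, with the seed (bases 2 to 8, the part that pairs with targets) in capitals.
miR-193a-3p: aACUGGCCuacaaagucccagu
miR-193b-3p: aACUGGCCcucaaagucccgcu
miR-193a-5p: uGGGUCUUugcgggcgagauga
miR-193b-5p: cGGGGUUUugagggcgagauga
miR-365a-3p: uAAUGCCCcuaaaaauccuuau
miR-365b-3p: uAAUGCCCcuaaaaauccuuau
miR-365a-5p: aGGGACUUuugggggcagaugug
miR-365b-5p: aGGGACUUucaggggcagcugu
The 3p arms of miR-193 share the seed ACUGGCC and differ, counted from 1 at the 5′ end with miR-193a-3p first, at U9C, A10U, A20G and G21C. The 5p arms of miR-193 have different seeds and differ at U1C, U5G, C6U and C11A. The authors trimmed the reads to 18 nt, which leaves 2 differences between the 3p arms of miR-193 and 4 between the 5p arms. The 3p arms of miR-365 are identical over all 22 bases, so no read can be assigned to chromosome 16 or 17. The 5p arms of miR-365 share the seed GGGACUU and differ at U10C, G11A and A19C, of which 2 lie in the first 18 bases. No other miRNA in the count file has any of these seeds.

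The miR-193b hairpin lies at chr16:14303967-14304049 and the miR-365a hairpin at chr16:14309285-14309371, both on the plus strand of hg38, in an intron of the lncRNA gene MIR193BHG and 5235 bases apart. The miR-193a hairpin lies at chr17:31559996-31560083, in no other GENCODE gene on its strand. The miR-365b hairpin lies 15327 bases downstream at chr17:31575411-31575521, where 11 of its bases fall in an exon of the lncRNA gene MIR365BHG. The miR-365 precursors are printed from the first base of the 5p arm to the last base of the 3p arm, with the arms in capitals and the loop in lower case, since their arms moved in opposite directions.
pre-miR-365a: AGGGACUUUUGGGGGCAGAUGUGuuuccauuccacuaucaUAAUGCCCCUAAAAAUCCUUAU
pre-miR-365b: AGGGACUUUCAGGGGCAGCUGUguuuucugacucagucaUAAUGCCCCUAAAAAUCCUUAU
The minimum free energy fold of each of the 4 precursors, cut at these annotated ends, left 2 unpaired bases at the 3′ end and 0 at the 5′ end, for miR-365a as for the others.

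The libraries held between 4338558 and 7967606 counts. Levels are given in CPM, the count scaled to each library's total, so that a gain of abundant miRNAs lowers every other value and a loss raises it. Of all counts, 19.2% to 19.7% came from let-7 and miR-98 in ΔTUT4/7 libraries, against 5.57% to 6.36% in wild type libraries. The share of miR-16-5p went the other way, with 17.5% to 17.8% in ΔTUT4/7 and 23.5% to 28.0% in wild type libraries. TUT4 and TUT7 are not measured by mature miRNA counts, so the labels could not be checked against the deleted genes. The 826 miRNAs with a count above 7 in any library entered edgeR's quasi-likelihood test, and all adjusted p-values of single arms are Benjamini-Hochberg values from it. Of the 6 members, 1 changed by at least 2-fold with an adjusted p under 0.05, against 30.0% of the 826 tested miRNAs. At any size, 2 members passed an adjusted p of 0.05, against 45.2% of the tested miRNAs. Of these, 1 was higher, as were 23.2% of the tested miRNAs, and 1 was lower, as were 21.9%. Both are arms of miR-365a. The median log2 fold change was 0.0044 over the 6 members and 0.013 over all tested miRNAs.

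**Figure D1:**
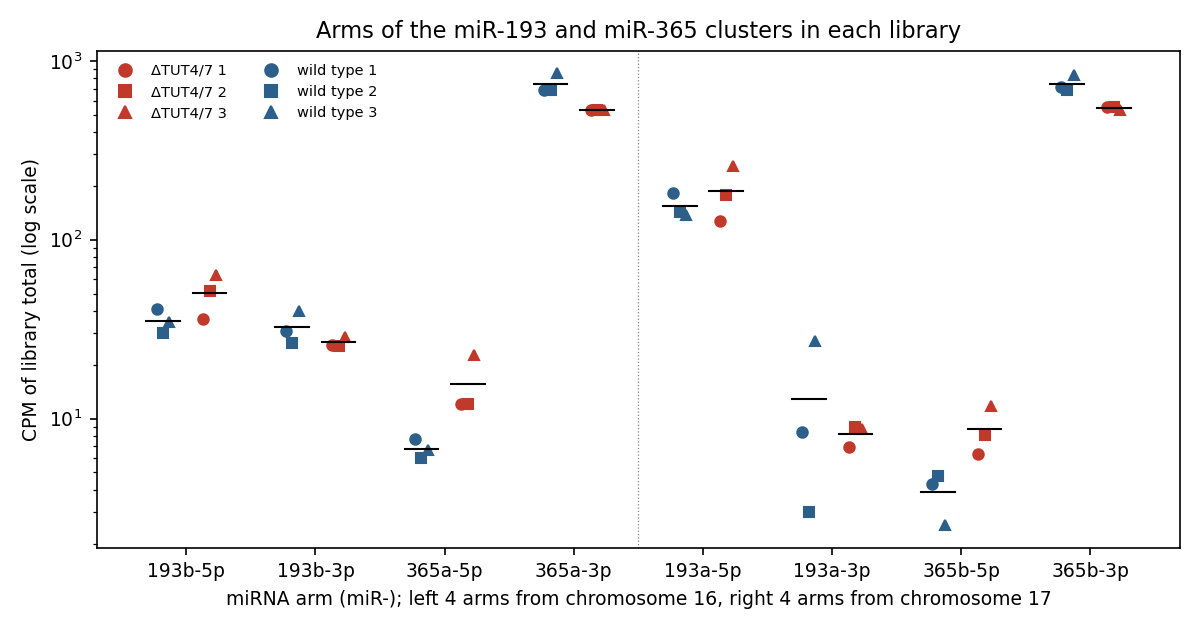
Level of each arm in each of the 6 libraries, in CPM of the library total on a log axis, with black lines at the mean of 3 libraries and a dotted line between the arms of chromosome 16 and those of chromosome 17. The groups do not overlap for the miR-365 arms, with the 5p arms higher and the 3p arms lower in ΔTUT4/7, and they overlap for all 4 miR-193 arms. Groups without overlap, in either direction, were found for 58.4% of the 826 tested miRNAs.

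The arms differed widely in level. In wild type cells, miR-365a-3p was the most abundant member at 744 ± 93.1 CPM, followed by miR-193a-5p at 154 ± 24.1 CPM, miR-193b-5p at 35.2 ± 5.41 CPM, miR-193b-3p at 32.4 ± 7.01 CPM, miR-193a-3p at 12.9 ± 12.7 CPM and miR-365a-5p at 6.80 ± 0.847 CPM (SD, n = 3 each). By mean level over all libraries they held places 101, 160, 256, 284, 384 and 380 among the 1000 listed miRNAs. In wild type cells the libraries of miR-365a-3p, miR-193a-5p and miR-193b-5p did not overlap, while miR-193b-5p overlapped miR-193b-3p, miR-193b-3p overlapped miR-193a-3p and miR-193a-3p overlapped miR-365a-5p. In ΔTUT4/7 cells the order was the same down to miR-193b-3p, and miR-365a-5p at 15.6 ± 6.10 CPM came before miR-193a-3p at 8.19 ± 1.13 CPM (SD, n = 3 each). By counts, the more abundant arm was therefore the 3p arm for miR-365a, though its reads cannot be told from those of miR-365b, and the 5p arm for miR-193a. The arms of miR-193b were nearly balanced in wild type cells.

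The 3p arm shared by the miR-365a and miR-365b hairpins was lower in ΔTUT4/7 cells. miR-365a-3p had 534, 534 and 533 CPM in ΔTUT4/7 replicates 1, 2 and 3 and 689, 690.4 and 851 CPM in the wild type replicates. No ΔTUT4/7 library reached the lowest wild type library, and groups without overlap, in either direction, were found for 58.4% of the tested miRNAs. Its mean fell from 744 ± 93.1 CPM to 534 ± 0.277 CPM (SD, n = 3 each). The log2 fold change was -0.48 (standard error 0.14, 95% interval -0.79 to -0.16, adjusted p = 0.0177). The small spread among the ΔTUT4/7 libraries is narrower than counting error alone, which gave replicate 1 an exact 95% Poisson interval of 514 to 554 CPM. The identical miR-365b-3p averaged 543 ± 13.2 CPM against 743 ± 77.5 CPM in wild type (SD, n = 3 each), with a log2 fold change of -0.45 (adjusted p = 0.0205) whose call was likewise lost without ΔTUT4/7 replicate 1, 2 or 3 (adjusted p of 0.0600, 0.0827 and 0.0680). The authors' quantification had divided the reads almost evenly, with 0.969 to 1.02 counts of miR-365a-3p for each count of miR-365b-3p in the 6 libraries, so these are not separate measurements of the loci. Summed, they made up 1077 ± 13.4 CPM against 1487 ± 170.1 CPM in wild type (SD, n = 3 each). With let-7 and miR-98 taken out of the library totals, the log2 fold change of miR-365a-3p was -0.26 and did not pass (adjusted p = 0.164). The arm has a GC content of 31.8%, the lowest of the members, and with each library's GC trend removed the value was -0.29 (adjusted p = 0.121). Without ΔTUT4/7 replicate 1, 2 or 3 it stayed at -0.48 with adjusted p of 0.0564, 0.0772 and 0.0525.

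The 5p arm of the miR-365a hairpin was higher in ΔTUT4/7 cells. miR-365a-5p had 12.02, 12.1 and 22.6 CPM in ΔTUT4/7 replicates 1, 2 and 3 and 7.71, 6.02 and 6.68 CPM in the wild type replicates. The groups did not overlap, as for 58.4% of the tested miRNAs in either direction, and ΔTUT4/7 replicate 3 stood well above the others. The values rest on 61, 58 and 106 counts in ΔTUT4/7 and 34, 48 and 29 counts in wild type cells. The log2 fold change was 1.20 (standard error 0.29, 95% interval 0.56 to 1.84, adjusted p = 0.00575), a 2.29-fold difference of the means. miR-365a-5p was the member that passed the 2-fold limit. Without ΔTUT4/7 replicate 3 its log2 fold change was 0.83, under the limit, with an adjusted p of 0.0268. Unlike the 3p arm, miR-365a-5p kept an adjusted p under 0.05 in all 16 alternative fits.

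miR-365b-5p, annotated on chromosome 17, changed to a similar extent. The 5p arms of miR-365 differ at 2 of the 18 bases kept. The sources read do not give the mismatches allowed in mapping, and whether these arms shared reads was not tested. It had 6.31, 8.11 and 11.7 CPM in ΔTUT4/7 replicates 1, 2 and 3 and 4.31, 4.77 and 2.54 CPM in the wild type replicates. The groups had no overlap, which held for 58.4% of the tested miRNAs in either direction. Its log2 fold change was 1.13 (standard error 0.33, adjusted p = 0.0147), and 0.86 with an adjusted p of 0.0639 without ΔTUT4/7 replicate 3. It was under the 2-fold limit, though past an adjusted p of 0.05, without wild type replicate 3 (0.92), by limma-trend (0.99) and with the GC trend removed (0.93). For each count of miR-365b-5p there were 1.49 to 1.93 counts of miR-365a-5p in ΔTUT4/7 and 1.26 to 2.64 in wild type, and these ranges overlap. This ratio was chosen after its values were seen and was not tested.

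**Figure D2:**
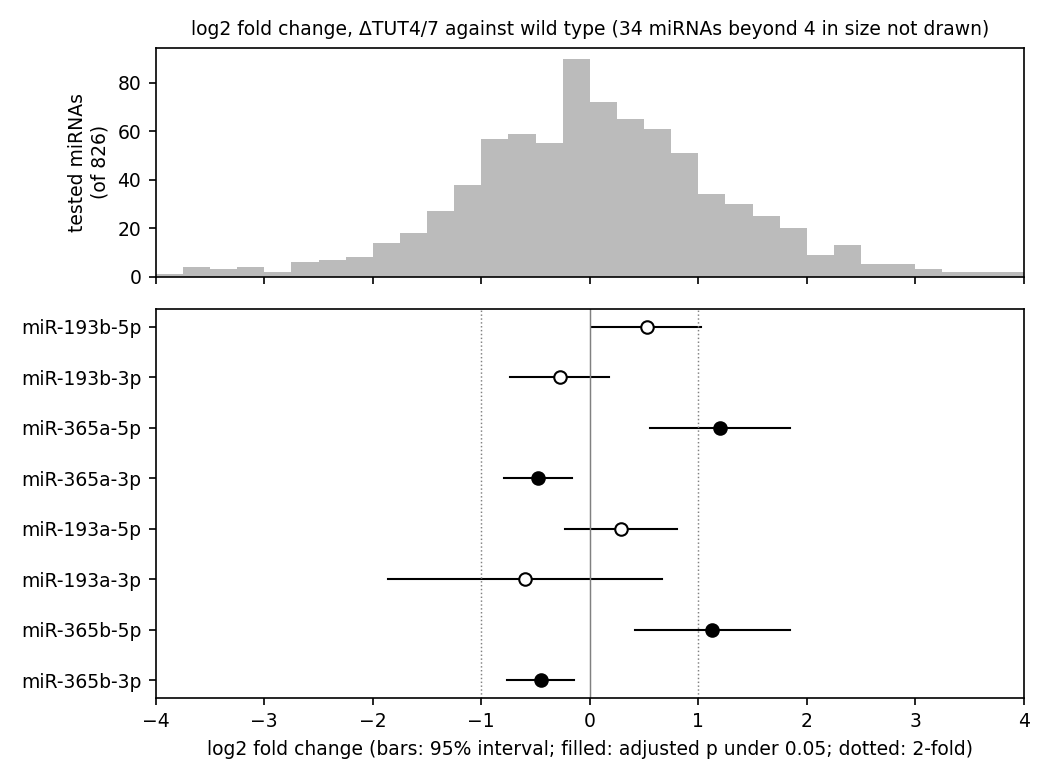
Lower panel, log2 fold change of each arm in ΔTUT4/7 against wild type cells with its 95% interval, filled where the adjusted p is under 0.05, with dotted lines at a 2-fold change. Upper panel, the number of the 826 tested miRNAs at each log2 fold change, without 34 that lie beyond 4 in size. The 5p arms of miR-365 lie beyond the 2-fold line at 1.20 and 1.13 and the 3p arms at -0.48 and -0.45, while the intervals of miR-193a-5p, miR-193a-3p and miR-193b-3p include 0.

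The ratio of the arms of a hairpin within a library does not depend on the library total. It was compared between the strains for the 200 hairpins whose arms have exactly matching names and a count above 7, with limma on log2((5p count + 0.5)/(3p count + 0.5)) and Benjamini-Hochberg adjustment over these hairpins. The ratio changed at an adjusted p under 0.05 in 15.5% of the 200 hairpins, and toward the 5p arm in 9.5%. The miR-365a hairpin had 44.4, 44.3 and 23.6 reads of the 3p arm for each read of the 5p arm in ΔTUT4/7 replicates 1, 2 and 3, and 89.5, 114.6 and 127.3 in the wild type replicates. No ΔTUT4/7 library reached the level of any wild type library, a separation seen in 34.0% of the 200 hairpins. The 5p arm gained on the 3p arm by 1.60 on the log2 scale (standard error 0.32, adjusted p = 0.0102 by limma), or 3.02-fold with a 95% interval of 1.85-fold to 4.92-fold. For miR-365b the gain was 1.60 (standard error 0.40, adjusted p = 0.0276 by limma), or 3.03-fold. The 3p counts behind both ratios are divided from the same reads. With 3 libraries against 3, an exact 2-sided permutation test cannot go below p = 0.1, which it gave for miR-365a, miR-365b and miR-193b. The call of miR-365a was lost without ΔTUT4/7 replicate 3 (1.29, adjusted p = 0.0535 by limma), and that of miR-365b without any 1 of the ΔTUT4/7 libraries (1.34 to 1.82, adjusted p of 0.0551 to 0.113 by limma).

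**Figure D3:**
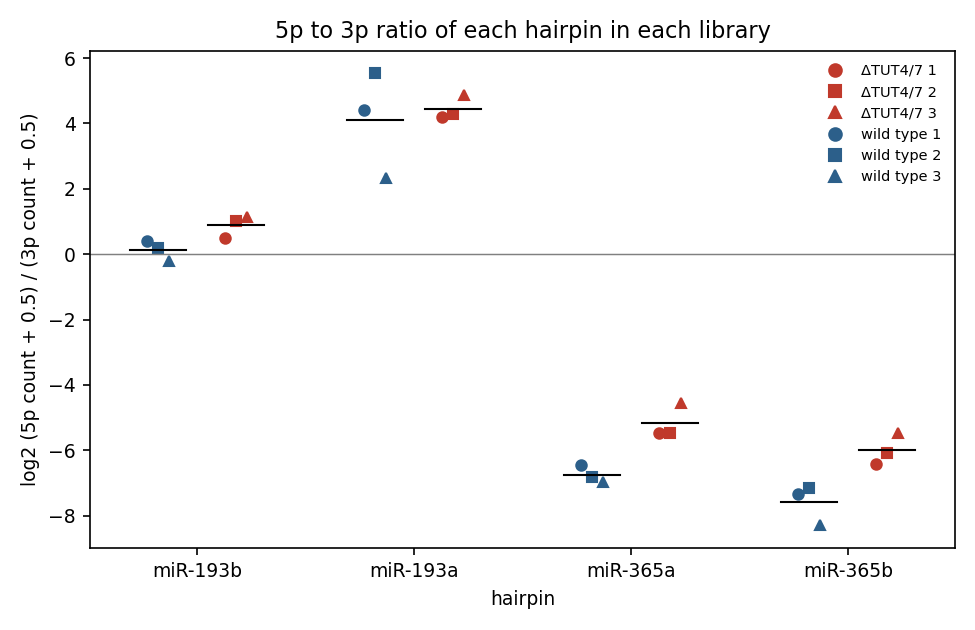
Log2 ratio of 5p to 3p counts of each hairpin in each library, with black lines at the mean of 3 libraries and a grey line where the arms are equal. The ΔTUT4/7 libraries lie above the wild type libraries for miR-193b, miR-365a and miR-365b, and between wild type replicates for miR-193a. Groups without overlap, in either direction, were seen in 34.0% of the 200 hairpins.

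Among the 200 hairpins, both arms passed an adjusted p of 0.05 by edgeR's quasi-likelihood test in 54, in the same direction in 49 of them and in opposite directions in 5. The 5p arm was higher and the 3p arm lower in 4, which were miR-365a, miR-365b, miR-301a and miR-6720, and the reverse held for miR-194. The 3p counts of miR-365a and miR-365b are divided from the same reads, so these hairpins are not independent cases. These calls of single arms also depend on the library totals. With let-7 and miR-98 taken out of the totals, miR-365a-3p (-0.26, adjusted p = 0.164 by edgeR) and miR-365b-3p (-0.23, adjusted p = 0.200 by edgeR) did not pass. Neither passed with the GC trend removed. miR-301a, miR-6720 and miR-194 were named after their values were seen. By the size of the gain of the 5p over the 3p arm, miR-365b and miR-365a held places 14 and 15 of 200, miR-193b place 40 and miR-193a place 78.

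**Figure D4:**
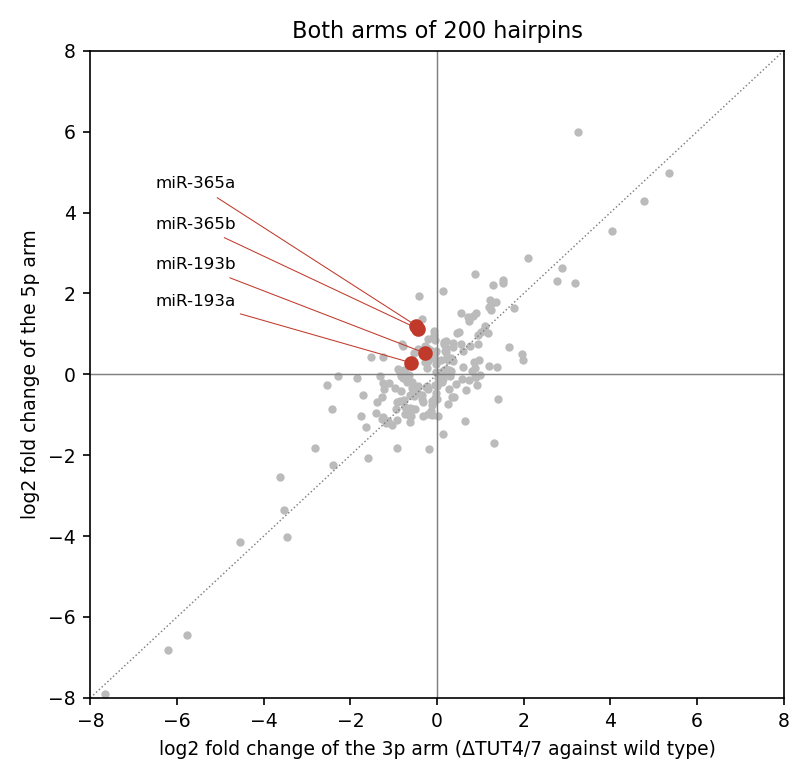
Log2 fold change of the 5p arm against that of the 3p arm, ΔTUT4/7 against wild type cells, for 200 hairpins (grey) with those of the miR-193 and miR-365 clusters in red and a dotted line of equal change. The 4 red points lie above the dotted line and left of 0, with miR-365a and miR-365b farthest from it.

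The miR-193b hairpin, the neighbour of miR-365a in MIR193BHG, had smaller differences of the same signs. miR-193b-5p had 36.3, 51.6 and 63.6 CPM in ΔTUT4/7 replicates 1, 2 and 3 and 40.8, 30.0 and 34.8 CPM in the wild type replicates. Only ΔTUT4/7 replicate 1 lay within the wild type range, and the log2 fold change of 0.52 (standard error 0.23, 95% interval 0.020 to 1.03) did not pass (adjusted p = 0.0832). With TMM factors it passed at 0.55 (adjusted p = 0.0466) and with totals without let-7 and miR-98 at 0.75 (adjusted p = 0.0197). It also passed without ΔTUT4/7 replicate 1, at 0.71 (adjusted p = 0.0294). miR-193b-3p had 25.8, 25.6 and 28.6 CPM in ΔTUT4/7 replicates 1, 2 and 3 and 30.8, 26.4 and 40.1 CPM in the wild type replicates. Its groups overlapped, and the log2 fold change was -0.28 (95% interval -0.73 to 0.18, adjusted p = 0.295), or -0.095 without wild type replicate 3. The 5p to 3p ratio of miR-193b was 1.40, 2.02 and 2.22 in ΔTUT4/7 and 1.32, 1.14 and 0.868 in wild type replicates 1, 2 and 3. The groups had no overlap, as in 34.0% of the 200 hairpins in either direction. The difference of 0.75 on the log2 scale (standard error 0.26) did not pass the adjustment over the 200 hairpins (adjusted p = 0.0713 by limma).

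The miR-193a hairpin on chromosome 17 showed no difference larger than its replicate spread. miR-193a-5p, its more abundant arm by counts, had 128, 177 and 257 CPM in ΔTUT4/7 replicates 1, 2 and 3 and 181, 142 and 137 CPM in the wild type replicates. ΔTUT4/7 replicate 1 was the lowest of the 6 libraries and replicate 3 the highest, and the log2 fold change of 0.28 had a 95% interval of -0.23 to 0.80 (adjusted p = 0.344). Without ΔTUT4/7 replicate 3 it was -0.014. miR-193a-3p had 6.90, 8.94 and 8.74 CPM in ΔTUT4/7 replicates 1, 2 and 3 and 8.39, 3.01 and 27.2 CPM in the wild type replicates. The wild type libraries thus spanned 9.03-fold and included both the lowest and the highest value. The exact 95% Poisson intervals of wild type replicates 2 and 3, 1.93 to 4.48 CPM and 22.5 to 32.6 CPM, do not overlap, so this spread exceeded counting error. The log2 fold change of miR-193a-3p was -0.60 (95% interval -1.86 to 0.66, adjusted p = 0.420), and 0.62 (adjusted p = 0.230) without wild type replicate 3. The 5p to 3p ratio of miR-193a was 18.5, 19.8 and 29.4 in ΔTUT4/7 and 21.6, 47.3 and 5.04 in wild type replicates 1, 2 and 3, a log2 difference of 0.35 (standard error 0.64, adjusted p = 0.762 by limma) that was -0.53 without wild type replicate 3.

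The same libraries were often the highest of their strain across the clusters. ΔTUT4/7 replicate 3 held the highest ΔTUT4/7 value of all 4 5p arms (miR-193a-5p, miR-193b-5p, miR-365a-5p and miR-365b-5p), as it did for 41.5% of the 171 5p arms with a mean above 10 CPM. Wild type replicate 3 held the highest wild type value of all 4 3p arms, as it did for 48.0% of the 177 3p arms above 10 CPM. The 3p arms of miR-365 share their reads. Their part in the differences varied between arms. Without wild type replicate 3, miR-365a-3p still passed at -0.37 (adjusted p = 0.0133 by edgeR) and miR-365b-3p at -0.36 (adjusted p = 0.0158 by edgeR). In that fit miR-193b-3p was at -0.095 and miR-193a-3p at 0.62, and neither passed.

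**Figure D5:**
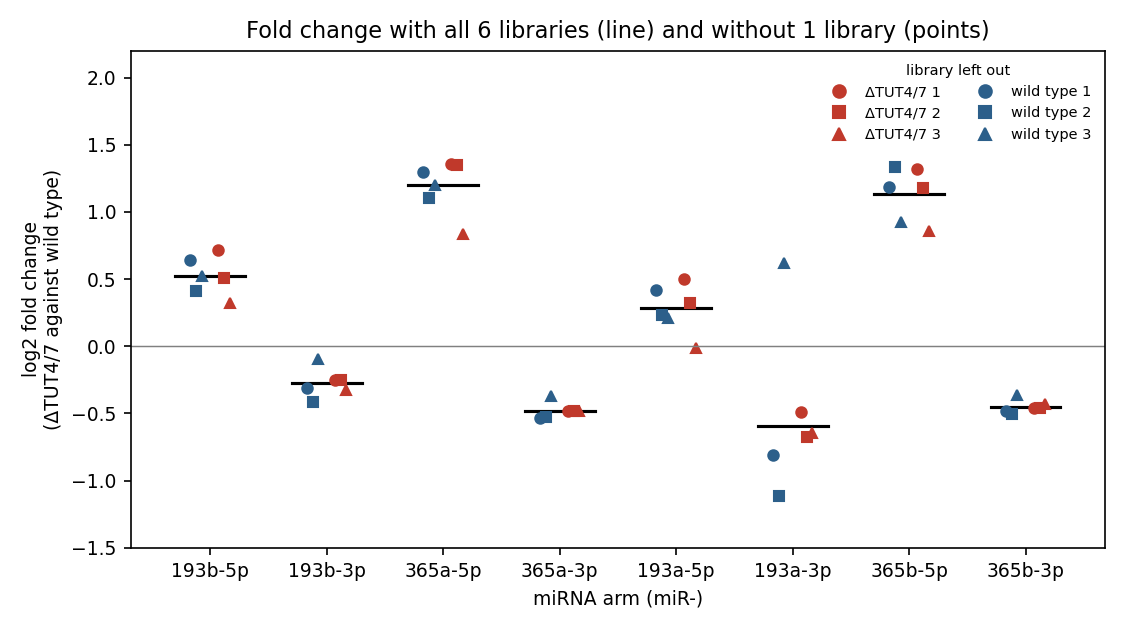
Log2 fold change of each arm in ΔTUT4/7 against wild type cells with all 6 libraries (black line) and with 1 library left out (points, coloured and shaped by the library left out). miR-365a-5p moves to 0.83 without ΔTUT4/7 replicate 3, and miR-193a-3p moves from -0.60 to 0.62 without wild type replicate 3.

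The copies on the 2 chromosomes and the neighbours on chromosome 16 were also compared by the ratio of their counts in each library, with exact 2-sided permutation tests adjusted over 4 ratios, none of which can go below p = 0.1. There were 3.51, 3.42 and 4.04 counts of miR-193a-5p for each count of miR-193b-5p in ΔTUT4/7 replicates 1, 2 and 3 and 4.43, 4.74 and 3.93 in the wild type replicates (exact p = 0.2, adjusted 0.267). For the 3p arms of miR-193a and miR-193b the ratio was 0.270, 0.352 and 0.309 in ΔTUT4/7 and 0.275, 0.116 and 0.679 in wild type cells (exact p = 0.8). The chromosome 17 copy therefore had more counts of the 5p and fewer of the 3p arm than the chromosome 16 copy in all 6 libraries. Whether the library preparation captured the different sequences equally was not tested. miR-193b-3p relative to miR-365a-3p was 0.049, 0.048 and 0.054 in ΔTUT4/7 and 0.045, 0.038 and 0.047 in wild type cells, higher in each ΔTUT4/7 library than in any wild type library (exact p = 0.1, adjusted 0.2). miR-193b-5p relative to miR-365a-5p was 3.00, 4.25 and 2.80 in ΔTUT4/7 and 5.23, 4.94 and 5.14 in wild type cells, lower in each ΔTUT4/7 library (exact p = 0.1, adjusted 0.2). The mean log2 ratio of miR-193b-5p to miR-365a-5p was thus lower by 0.63 in ΔTUT4/7 cells, and the exact test did not pass at its smallest possible p.

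Beside the members stand the other arms of hairpins on the study's group II list and the arms of another duplicated pair of clusters, miR-23a/27a/24 and miR-23b/27b/24. Of the 56 tested group II arms outside the miR-193 and miR-365 clusters, 21 were higher and 18 lower at an adjusted p under 0.05 by edgeR's quasi-likelihood test, with a median log2 fold change of 0.25 and a range from -2.51 to 5.62. With the 2-fold limit added, 19 were higher and 9 lower, against 16.5% and 13.6% of all tested miRNAs. The study had also examined this list on these samples, at a 2-fold limit. Of the 9 tested arms of the miR-23, miR-27 and miR-24 clusters, 5 were lower and 0 higher at an adjusted p under 0.05 at any size, with a median of -0.68. Among all 826 tested miRNAs, 23.2% were higher and 21.9% lower at this limit. In these clusters the lower arms were all 3p arms, as for miR-365a, but no 5p arm was higher, unlike miR-365a-5p. This split by arm was not planned and was not tested. The 5 lower 3p arms had log2 fold changes from -1.36 to -0.68, while the tested 5p arms ranged from -0.22 to -0.014.

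By the Pearson correlation of log2(CPM + 1) over the 6 libraries, among 384 other miRNAs above 10 CPM, the pattern most like that of miR-365a-3p was that of miR-421 (r = 0.996, log2 fold change -0.64), followed by miR-194-5p (r = 0.996, -0.61). For miR-365a-5p it was miR-760 (r = 0.979) and then miR-25-5p (r = 0.966). For miR-193b-5p the nearest was miR-597-5p (r = 0.943) and for miR-193a-5p miR-185-3p (r = 0.958), with miR-2110 next for both (r = 0.941 and 0.905). miR-193b-3p was nearest to miR-148b-3p (r = 0.980) and then miR-3909 (r = 0.957), and miR-193a-3p to miR-424-5p (r = 0.981) and then miR-33a-5p (r = 0.950). These correlations over 6 libraries share library and strain and are a description. Among the members themselves, miR-193a-5p and miR-193b-5p had r = 0.889, miR-193b-5p and miR-365a-5p r = 0.882, and miR-193a-3p and miR-193b-3p r = 0.836, while the arms of miR-365a had r = -0.80.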

How the data were processed

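Small RNA libraries of 3 ΔTUT4/7 and 3 wild type cultures were made with the QIAseq miRNA Library Kit. Reads were cut by the authors to 18 nt, mapped with Bowtie 1.0.0 (genome build hg38) and quantified on miRBase mature miRNAs in Partek Flow 10.0.22. The deposited values are estimated counts, written by the authors as whole numbers, and the expectation-maximization step divides reads that fit several miRNAs. How molecular identifiers were used is not given in the sources read, so intervals cover counting error only. A second file holds only the authors' comparison (p-values, FDR, ratio, fold change and group means) and was not used. Replicates are separate cultures only as far as the labels say so.

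Groups came from the sample titles. Counts were tested with edgeR 4.0.16 (R 4.3.3) for miRNAs with a highest count above 7, with library totals as sizes and normalization factors of 1. The standard error is the log2 fold change divided by the root of its F value, and 95% intervals use the test's degrees of freedom. Arm ratios used limma 3.58.1 with a pseudocount of 0.5 and a trend on the mean log2 CPM of the less abundant arm. Precursors were folded with ViennaRNA 2.7.2, and GENCODE release 44 gave the genes. RefSeq names matched 897 of the 1000 miRNAs, and all 897 sequences equalled hg38 at the file's coordinates. Other steps used Python 3.11.15, pandas 2.3.3, numpy 2.4.6, scipy 1.17.1 and matplotlib 3.10.9. Both tests were tried on simulated data. With changes at any abundance, which move the library totals, edgeR with total counts made many false calls. It made few once the simulation, after that outcome, was limited to rare miRNAs. The real libraries have a shift through let-7, so small fold changes of single arms may carry such an error. The arm ratio test made few false calls in both simulations. Both simulations changed randomly drawn miRNAs and used a common dispersion, so they do not measure the error of either test in the real libraries.

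The alternatives were TMM and RLE factors, library totals less let-7 and miR-98, DESeq2 1.42.0, limma-trend on log2(CPM + 1), no filter, filterByExpr, the replicate number as a block, each library left out, arms with the same first 18 nt summed, each library's GC trend removed with lowess (span 0.5), and for ratios other pseudocounts, a 10 CPM floor and exact permutation. Named by rule are the members, miR-365b and, for each member, the 2 most correlated miRNAs above 10 CPM. The hairpins miR-301a, miR-6720, miR-194 and miR-4725 were named after their values were seen. The members and lists were chosen with earlier results of these data known.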

Additional observations from a re-analysis of the deposited data

How the results depend on the processing

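Of the results for the 6 members, the adjusted p of miR-365a-5p stayed under 0.05 in all 16 alternative fits, and miR-193b-3p kept its direction in all 16 without passing, though its size varied from -0.054 with totals without let-7 and miR-98 to -0.48 with the GC trend removed. The lowest counts were those of miR-365a-5p, miR-365b-5p and miR-193a-3p, at 11 to 118 per library. With totals without let-7 and miR-98, which moved the median of all tested miRNAs from 0.013 to 0.23, miR-365a-3p was at -0.26 and miR-365b-3p at -0.23, neither past the threshold, and miR-193b-5p passed at 0.75. It passed with TMM factors at 0.55. With the GC trend removed, miR-365a-3p was at -0.29 and miR-365b-3p at -0.26, neither past the threshold, and 1 member passed at any size. The cause was not tested.

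No sign of pairing by replicate number was seen: deviations of same-numbered libraries had correlations of -0.17, -0.16 and -0.25 over 391 miRNAs. Such correlations cannot show whether same-numbered cultures were grown or prepared together. With the replicate number as a block, miR-365a-3p was at -0.47 (adjusted p = 0.0527 by edgeR), miR-365b-3p at -0.45 (adjusted p = 0.0658 by edgeR), and 1 member passed at any size. The 5p to 3p differences of miR-365a and miR-365b kept their value of 1.60 under the block (adjusted p of 0.0510 and 0.0740 by limma) and in the exact permutation test (1.60 for both, p = 0.1, the smallest possible). Among all tested miRNAs the block left 349 past an adjusted p of 0.05 in place of 373. The 5p to 3p difference of miR-365b could not be fitted with both arms above 10 CPM.

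Leaving out single libraries, 0 to 1 members passed the 2-fold limit and 1 to 2 passed at any size. Log2 fold changes ranged from 0.32 to 0.71 for miR-193b-5p, -0.41 to -0.095 for miR-193b-3p, -0.53 to -0.37 for miR-365a-3p, -0.50 to -0.36 for miR-365b-3p and 0.86 to 1.34 for miR-365b-5p. They changed sign for miR-193a-5p, from -0.014 to 0.50, and for miR-193a-3p, from -1.12 to 0.62. The 5p to 3p differences ranged from -0.53 to 1.07 for miR-193a, 1.29 to 1.75 for miR-365a and 1.25 to 1.82 for miR-365b. miR-365b-5p fell under the 2-fold limit by limma-trend (0.99) and with the GC trend removed (0.93). Apart from these changes and the calls lost or gained without single libraries, the alternatives kept each result on its side of an adjusted p of 0.05.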

Other observations

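Another hairpin lies beside miR-365b in MIR365BHG. miR-4725, at chr17:31575269-31575358, gave 13, 18 and 29 counts of its 3p arm in ΔTUT4/7 replicates 1, 2 and 3 and 5, 12 and 7 counts in the wild type replicates. The means were 4.16 ± 1.85 CPM against 1.42 ± 0.252 CPM in wild type (SD, n = 3 each). The groups did not overlap, as for 58.4% of the tested miRNAs in either direction. The log2 fold change was 1.52 (standard error 0.42, adjusted p = 0.0110 by edgeR), and 1.12 (adjusted p = 0.0591 by edgeR) without ΔTUT4/7 replicate 3. This miRNA was chosen after its values were seen. As with miR-365b-5p, its level was a few CPM and ΔTUT4/7 replicate 3 was the highest library.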
